A study of Rattus norvegicus with 144 samples.

Results

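Abcb1a, Abcc2 and Abcc3 encode 3 ATP-driven pumps that move drugs and drug conjugates out of liver cells, and their mRNAs were measured in rat livers after an oral dose of acetaminophen. The members were all probes of the deposited value table annotated with 1 of these 3 symbols. They came to 3 probes, 1 for each gene, among 18978 gene rows that held 36 ABC transporter genes. The study hybridised the liver RNA of 72 rats, each on 2 two-colour arrays of opposite dye orientation, and compared it with pooled liver RNA of 6 vehicle rats killed at the same time.

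All animals were male F344/N rats aged 10 to 12 weeks, and left-lobe liver was taken from each. The 12 groups were vehicle alone (0.5% ethyl cellulose by gavage, given to every rat), 150, 1500 and 2000 mg/kg acetaminophen in that vehicle, each at 3, 6 and 24 h, with 6 rats per group. Each dose was given in 2 portions. The dose of each rat came from the deposited key of this blinded set and the time from the labels. Whether the pooled vehicle rats were also those measured singly was not stated, and nothing said that the 6 rats of a group were treated on separate days.

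Acetaminophen is conjugated in hepatocytes to a glucuronide, a sulfate and, through its reactive metabolite, a glutathione conjugate, and these products need transport proteins to leave the cell. The multidrug resistance protein MRP2 (Abcc2) sits in the canalicular membrane and passes glucuronide and glutathione conjugates into bile. MRP3 (Abcc3) sits in the sinusoidal membrane and passes glucuronides into blood, and P-glycoprotein (Abcb1a) is a canalicular pump for bulky lipophilic drugs, which rodents encode with a pair of genes, Abcb1a and Abcb1b.

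By the RefSeq annotation of the rat assembly GRCr8, all 3 are protein-coding genes. Abcb1a (probe 15272, accession NM_133401) spans chr4:26312403-26488456, Abcc2 (probe 20409, NM_012833) spans chr1:252613875-252672459 and Abcc3 (probe 9098, NM_080581) spans chr10:79793571-79839528. No probe was annotated with Abcb1b, and whether the Abcb1a probe also binds that close relative was not tested. The promoter windows below run from 250 bases before to 50 bases after the RefSeq start, 5′ to 3′ on the gene's own strand, and show the DNA around the start of the pump genes that matched a window of the RefSeq table, Abcb1a and Abcc2. The window of Abcb1a is chr4:26397599-26397898 (minus strand), at a start inside the annotated span of the gene, and that of Abcc2 is chr1:252613625-252613924 (plus strand). Capitals mark the motifs found.
Abcb1a: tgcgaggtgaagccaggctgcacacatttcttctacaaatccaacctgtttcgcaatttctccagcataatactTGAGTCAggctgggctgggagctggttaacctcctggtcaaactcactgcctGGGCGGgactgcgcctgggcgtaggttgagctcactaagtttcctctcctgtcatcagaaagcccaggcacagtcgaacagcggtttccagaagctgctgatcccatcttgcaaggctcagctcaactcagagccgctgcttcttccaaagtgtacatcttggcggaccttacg
Abcc2: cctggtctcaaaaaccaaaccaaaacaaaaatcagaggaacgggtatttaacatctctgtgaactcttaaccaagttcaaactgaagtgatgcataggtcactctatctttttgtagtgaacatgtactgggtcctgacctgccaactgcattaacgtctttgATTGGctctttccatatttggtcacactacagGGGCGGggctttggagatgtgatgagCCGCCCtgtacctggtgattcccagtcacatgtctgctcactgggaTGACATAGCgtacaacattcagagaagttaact

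Both strands were searched for 6 short motifs, and no match overlapped another. The Abcb1a window held an AP-1 site (TGANTCA) beginning 176 bases before the start and a GC box (GGGCGG) beginning 124 bases before it. The Abcc2 window held an inverted CCAAT box (CCAAT) 87 bases before the start, GC boxes 55 and 29 bases before it, and the core letters of an antioxidant response element (TGACNNNGC) beginning 17 bases after it. The E-box (CACGTG) and the heat shock element unit (GAANNTTC) were not in these windows. Of 33469 rat promoter windows of the same length, 7.33% held the AP-1 letters, 33.1% a GC box, 37.5% a CCAAT box, 12.1% the antioxidant core, 6.42% the E-box and 8.59% the heat shock unit. A match describes the letters only.

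Values are given as log2 ratios of a rat's liver over the pool of its time. The log base and the direction of the deposited ratios were not stated. Base 10 and Cy5 over Cy3 were assumed, and the direction is likely because genes known to respond to acetaminophen, such as Hmox1 and Nqo1, came out higher in dosed rats. Each time has its own pool, so a level is compared only within a time, and a level of 1 gene is not set against that of another. In whole liver, fewer cells of a type and less RNA per cell cannot be told apart.

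The 3 probes had a value on all 144 arrays, but not with equal precision. The 2 arrays of a rat differed by a median of 0.0464 for Abcc2 and 0.0571 for Abcc3, against 0.268 over all gene rows. For Abcb1a that gap was 0.516, and 23.4% of gene rows had a larger one. Abcb1a read higher with the rat's RNA in Cy5 in 67 of 72 rats, by 0.87 on average, a difference that cancels in the mean of the 2 arrays.

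A pair of Abcb1a arrays stood far from their partners. Rat 5889 (24 h, 2000 mg/kg) read 9.22 on its Cy5 array and 2.08 on the other, and vehicle rat 2698 (3 h) read -5.17 on its Cy3 array and 0.15 on the other. Abcb1a results are therefore also given without these 2 arrays, a choice made after the values were seen. Rat 5889 then keeps only its Cy3 array and rat 2698 only its Cy5 array, so the dye difference no longer cancels in these 2 rats. A further technical feature was a set of 500 probes that were blank on 49 arrays, which took in both arrays of 23 rats and a lone array of 3 others. None of the 3 pump probes was in the blank set. Rats with both arrays of this kind were unevenly spread over the doses: at 0, 150, 1500 and 2000 mg/kg they were 0, 0, 1 and 3 of 6 at 3 h, 3, 2, 1 and 3 of 6 at 6 h, and 2, 2, 3 and 3 of 6 at 24 h. At 3 h the feature was thus partly tied to dose. Values within each kind of rat are given beside the calls against vehicle and with the time course and the 24 h correlations. The differences between pumps and the list and marker counts were not computed within each kind of rat.

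**Figure D1:**
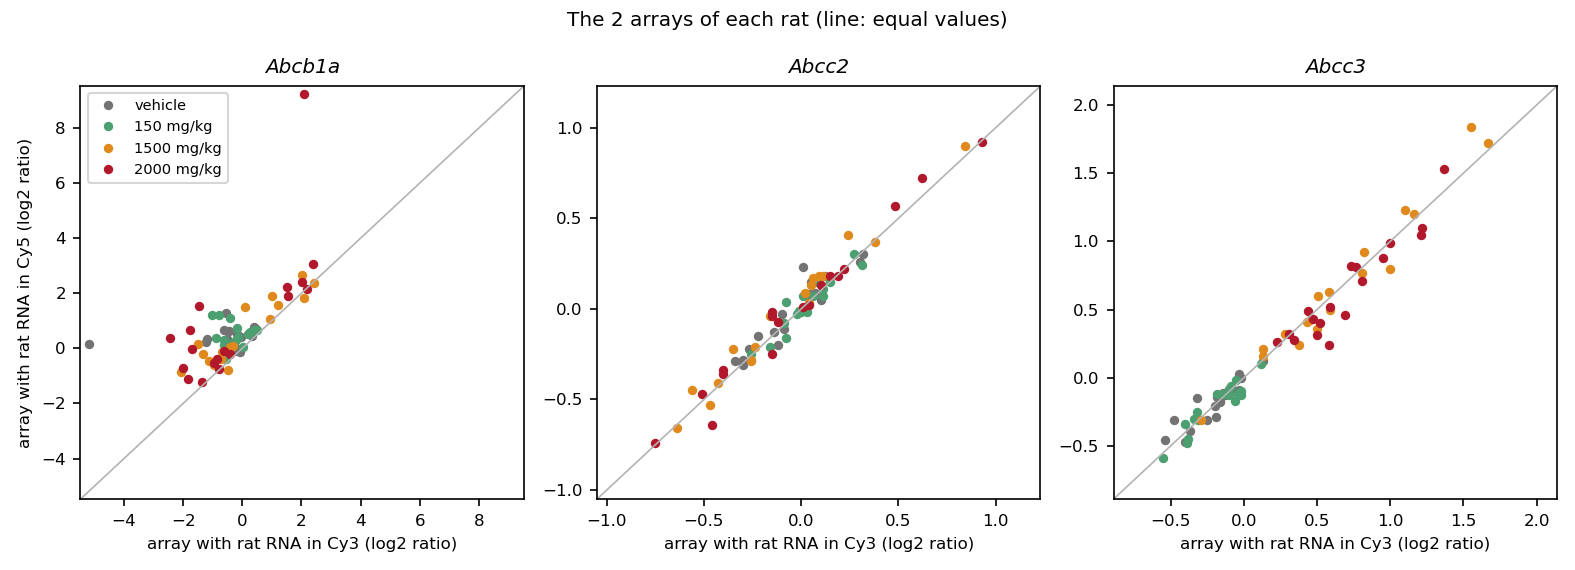
Log2 ratios of each rat's array with liver RNA in Cy5 (vertical axis) against its array with liver RNA in Cy3 (horizontal axis), for the 3 pumps in 72 rats, coloured by dose, with the line of equal values. Abcc2 and Abcc3 lie along the line (r = 0.977 and 0.983), whereas Abcb1a lies mostly above it (r = 0.619), with the points at 9.22 and -5.17 far off.

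The pumps had unlike courses after the high doses. Abcc3 was higher than in vehicle rats at all 3 times, by 1.51-fold to 2.17-fold. Abcc2 fell at 6 h and was higher at 24 h at 2000 mg/kg, by small amounts. Abcb1a fell 2.57-fold at 6 h at 2000 mg/kg and rose 3.42-fold at 1500 mg/kg and 6.72-fold at 2000 mg/kg by 24 h. The last of these folds rests on 1 array of rat 5889 and was 4.45 without the 2 outlying arrays.

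Each gene was tested against vehicle in a limma fit over all 72 rats, with Benjamini-Hochberg adjustment over 18978 gene rows and a threshold of 0.05. At 3 h, 1 of the 3 pumps passed at 1500 mg/kg, where 5.85% of all gene rows passed, and 1 at 2000 mg/kg, where 9.03% did. At 6 h, 2 passed at 1500 mg/kg (6.88% of gene rows) and 3 at 2000 mg/kg (11.1%). At 24 h, 2 passed at 1500 mg/kg (21.5%) and 3 at 2000 mg/kg (24.3%). At 150 mg/kg none of the 3 passed at any time, and neither did any other gene row (0% at each time), although 698 rows at 3 h, 590 at 6 h and 530 at 24 h had an unadjusted p under 0.05.

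**Figure D2:**
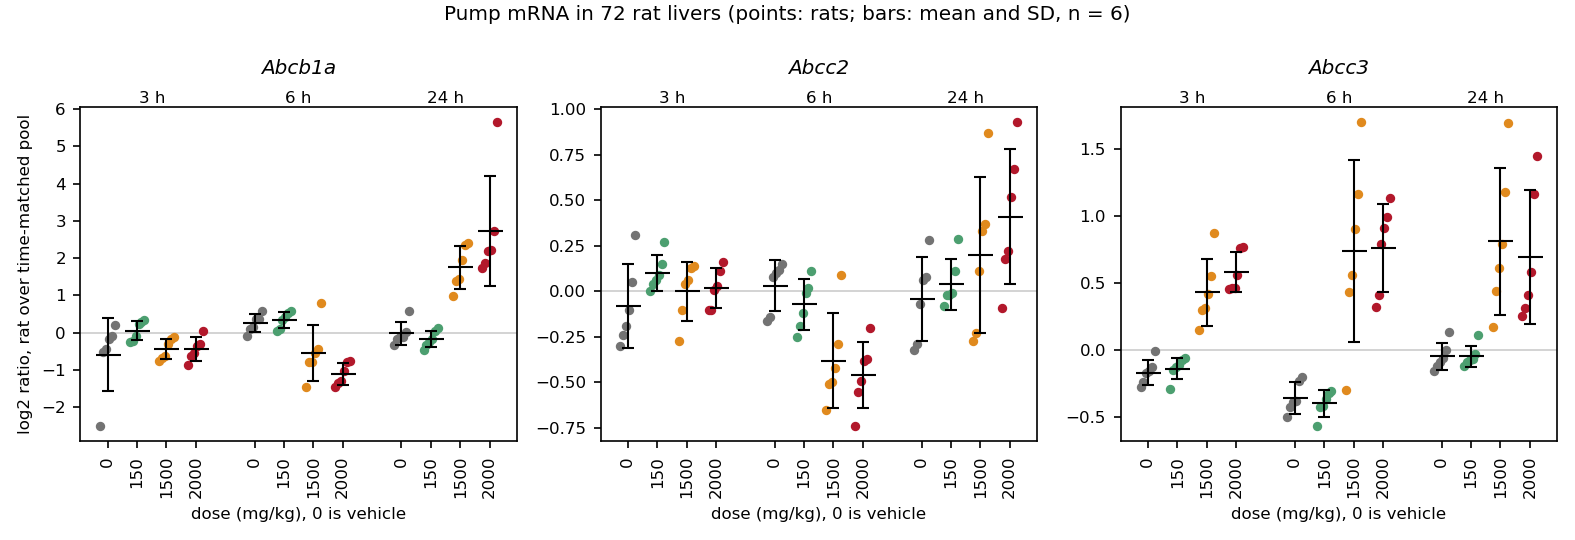
Log2 ratio over the time-matched pool (vertical axis, scaled separately for each gene) of Abcb1a, Abcc2 and Abcc3 in each of 72 rats by time and dose (0 is vehicle), with the group mean and SD (n = 6). Abcc3 stands above vehicle at 1500 and 2000 mg/kg at each time save in 1 rat at 6 h, Abcb1a lies low at 6 h and high at 24 h, and Abcc2 spans a narrower range.

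Abcc3, the sinusoidal pump, was the pump that passed the test at 3 h. At 3 h its log2 ratio ran from 0.15 to 0.87 (median 0.36) at 1500 mg/kg, against -0.28 to -0.01 (median -0.17) in vehicle rats. The 2000 mg/kg group ran from 0.45 to 0.77 (median 0.51), against the same vehicle range. Neither dosed group overlapped the vehicle group, as for 4.68% of gene rows at 1500 mg/kg and 6.1% at 2000 mg/kg. The difference was 0.60 ± 0.19 (SE) at 1500 mg/kg (limma, adjusted p = 0.0394) and 0.74 ± 0.19 at 2000 mg/kg (adjusted p = 0.0042). The call at 1500 mg/kg was close to the threshold, and leaving out any of 8 of the 12 rats took it past 0.05, with values from 0.51 to 0.66 and adjusted p up to 0.118.

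At 6 h Abcc3 ran from -0.30 to 1.70 (median 0.73) at 1500 mg/kg, against -0.50 to -0.20 (median -0.39) in vehicle rats. All 6 vehicle rats thus lay below the pool at this time, and 5 of 6 dosed rats lay above every vehicle rat. The exception was rat 7334 at -0.30. The 2000 mg/kg rats ran from 0.32 to 1.13 (median 0.85), clear of the vehicle range, as for 9.03% of gene rows. The differences were 1.10 ± 0.19 (2.14-fold, adjusted p = 2.69e-05) and 1.12 ± 0.19 (2.17-fold, adjusted p = 9.74e-06). Without rat 7334 the value at 1500 mg/kg was 1.31.

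At 24 h Abcc3 ran from 0.17 to 1.69 (median 0.70) at 1500 mg/kg, against -0.16 to 0.13 (median -0.07) in vehicle rats. At 2000 mg/kg it ran from 0.25 to 1.45 (median 0.49), against the same vehicle range. No dosed rat reached down into the vehicle range, though rats of 1 dose differed widely (SD 0.55 at 1500 mg/kg and 0.50 at 2000 mg/kg, against 0.10 in vehicle rats). The share of gene rows without overlap was 4.29% at 1500 mg/kg and 10.8% at 2000 mg/kg. The differences were 0.86 ± 0.19 (1.82-fold, adjusted p = 0.000287) and 0.74 ± 0.19 (1.67-fold, adjusted p = 0.0016).

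Within rats free of the shared blank probes, the Abcc3 differences kept their direction but several lost the call. At 3 h they were 0.60 at 1500 mg/kg (adjusted p = 0.195) and 0.76 at 2000 mg/kg (adjusted p = 0.063). At 6 h they were 1.09 (adjusted p = 0.0108) and 0.98 (adjusted p = 0.037). At 24 h they were 0.63 (adjusted p = 0.174) and 0.66 (adjusted p = 0.0713). Among rats with the blank probes on both arrays, where 2 or more rats stood in both groups, they were 1.25 at 6 h and 2000 mg/kg (adjusted p = 0.0152), 1.10 at 24 h and 1500 mg/kg (adjusted p = 0.0221) and 0.83 at 24 h and 2000 mg/kg (adjusted p = 0.0989).

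At 150 mg/kg Abcc3 stayed within 0.05 of vehicle in its mean at every time. The difference was 0.03 at 3 h (95% interval -0.34 to 0.40), -0.05 at 6 h (-0.42 to 0.32) and 0.00 at 24 h (-0.37 to 0.37). Changes within these intervals cannot be told from none. As a comparison of size alone, the Abcc2 changes at 2000 mg/kg given below (-0.48 at 6 h and 0.45 at 24 h) lie outside them. The intervals are those of Abcc3, are not adjusted for the number of gene rows and set no limit for the other pumps.

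Abcc2, the canalicular conjugate pump, did not pass the test at 3 h. It ran from -0.27 to 0.14 (median 0.05) at 1500 mg/kg and from -0.10 to 0.16 (median 0.02) at 2000 mg/kg, against -0.30 to 0.31 (median -0.14) in vehicle rats. All dosed rats lay inside the vehicle range. The differences were 0.08 ± 0.13 (adjusted p = 0.864) and 0.10 ± 0.13 (adjusted p = 0.729).

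At 6 h Abcc2 fell. It ran from -0.65 to 0.09 (median -0.46) at 1500 mg/kg, against -0.16 to 0.15 (median 0.09) in vehicle rats, and 5 of 6 dosed rats lay below every vehicle rat. Rats given 2000 mg/kg ran from -0.74 to -0.20 (median -0.43), with no overlap, as for 9.03% of gene rows. The differences were -0.41 ± 0.13 at 1500 mg/kg (adjusted p = 0.045, a 1.32-fold fall) and -0.48 ± 0.13 at 2000 mg/kg (adjusted p = 0.00814, a 1.40-fold fall). The call at 1500 mg/kg was lost when any of 9 of the 12 rats was left out, with values from -0.50 to -0.35 and adjusted p up to 0.147.

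At 24 h Abcc2 varied widely among dosed rats. It ran from -0.27 to 0.87 (median 0.22) at 1500 mg/kg, against -0.32 to 0.28 (median 0.00) in vehicle rats. At 2000 mg/kg it ran from -0.09 to 0.93 (median 0.37), against the same vehicle range. In each dosed group 3 of 6 rats lay above every vehicle rat and the others overlapped them. The difference was 0.24 ± 0.13 at 1500 mg/kg (adjusted p = 0.204) and 0.45 ± 0.13 at 2000 mg/kg (adjusted p = 0.00748, 1.36-fold). Without rat 8089, the highest at 2000 mg/kg, it was 0.34 (adjusted p = 0.0541).

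The Abcc2 rise at 24 h and 2000 mg/kg was 0.62 within rats free of the shared blank probes (adjusted p = 0.00203) and 0.17 among rats with them on both arrays (adjusted p = 0.732). The fall at 6 h and 2000 mg/kg was -0.62 in rats free of them (adjusted p = 0.0153) and -0.34 among rats with them (adjusted p = 0.418). At 6 h and 1500 mg/kg it was -0.43 in rats free of them (adjusted p = 0.104).

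Abcb1a, the P-glycoprotein gene, did not pass the test at 3 h either. It ran from -0.76 to -0.12 (median -0.46) at 1500 mg/kg and from -0.86 to 0.04 (median -0.46) at 2000 mg/kg, against -2.51 to 0.20 (median -0.31) in vehicle rats. The difference was 0.15 ± 0.35 at 1500 mg/kg (adjusted p = 0.915) and 0.15 ± 0.35 at 2000 mg/kg (adjusted p = 0.873). It turned to -0.30 ± 0.21 at each dose without the 2 outlying arrays (adjusted p = 0.533 and 0.46), since the lowest vehicle rat then moved up to the others, which ran from -0.51 to 0.20.

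At 6 h Abcb1a was low in the dosed rats. It ran from -1.47 to -0.75 (median -1.16) at 2000 mg/kg, against -0.10 to 0.59 (median 0.26) in vehicle rats. These groups did not overlap, as for 9.03% of gene rows. At 1500 mg/kg Abcb1a ran from -1.47 to 0.80 (median -0.67), against the same vehicle range. There 5 rats lay below every vehicle rat. Rat 7334, the rat that also stood with vehicle for Abcc3, lay above every vehicle rat. The difference was -1.36 ± 0.35 at 2000 mg/kg (adjusted p = 0.00517). At 1500 mg/kg it was -0.78 ± 0.35 (adjusted p = 0.21), -0.78 ± 0.21 without the 2 outlying arrays, whose removal narrowed the shared spread (adjusted p = 0.0124), and -1.05 without rat 7334 (adjusted p = 0.0423). At 2000 mg/kg the value was -1.17 in rats free of the shared blank probes (adjusted p = 0.242) and -1.55 in rats with them (adjusted p = 0.00135). The fit of rats free of these probes kept the outlying array of rat 5889 in its shared spread (SE 0.49, against 0.23 in rats with them).

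At 24 h Abcb1a was high in all 12 rats of the high doses. It ran from 0.99 to 2.40 (median 1.70) at 1500 mg/kg, against -0.33 to 0.57 (median -0.12) in vehicle rats. At 2000 mg/kg it ran from 1.73 to 5.65 (median 2.20), against the same vehicle range. Neither dosed group overlapped the vehicle group, as for 4.29% of gene rows at 1500 mg/kg and 10.8% at 2000 mg/kg. The differences were 1.78 ± 0.35 (adjusted p = 8.52e-05) and 2.75 ± 0.35 (adjusted p = 7.86e-09).

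The size of the 24 h rise at 2000 mg/kg rested in part on rat 5889. Without the 2 outlying arrays the group ran from 1.73 to 2.72 (median 2.13), and the difference was 2.15 ± 0.21 (adjusted p = 3.51e-12). At 1500 mg/kg, Abcb1a was 1.94 to 2.40 in the 3 rats with the shared blank probes and 0.99 to 1.45 in the 3 rats without them. Within rats free of these probes the differences were 1.19 at 1500 mg/kg (adjusted p = 0.16) and 3.11 at 2000 mg/kg (adjusted p = 1.01e-05), and within rats with them 2.48 (adjusted p = 3.53e-05) and 2.50 (adjusted p = 4.45e-05). Rat 5889 was free of these probes and its outlying array was kept in that fit, where the 2000 mg/kg rats ran from 1.73 to 5.65. The 3.11 thus includes that array and was not computed without it. With the number of such arrays as a covariate, and the 2 outlying arrays kept, the values were 1.79 and 2.77.

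At 150 mg/kg Abcc2 and Abcb1a gave no call at any time. For Abcc2 the differences were 0.18, -0.10 and 0.09 at 3, 6 and 24 h (SE 0.13 each). For Abcb1a they were 0.64, 0.09 and -0.15 (SE 0.35 each), and the first of these was 0.19 without the 2 outlying arrays. The wide error leaves changes of Abcb1a of up to 1.34 on the log2 scale within the 95% interval at 3 h.

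The 2 high doses were not told apart by any pump. For 2000 against 1500 mg/kg, the Abcb1a difference was 0.00 at 3 h, -0.58 at 6 h and 0.97 ± 0.35 at 24 h (adjusted p = 1 at each time). The 24 h value had an unadjusted p of 0.00752 and was 0.38 without the 2 outlying arrays. For Abcc2 the 24 h difference was 0.21 (95% interval -0.05 to 0.47) and for Abcc3 it was -0.12 (-0.49 to 0.25). Over all gene rows this comparison called 0.0105% at 3 h, 0.00527% at 6 h and 0% at 24 h, where 846 rows had an unadjusted p under 0.05.

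The change of the response with time was tested as the dosed minus vehicle difference at 1 time less that at another. For Abcb1a the response at 24 h stood above that at 6 h by 2.56 ± 0.50 at 1500 mg/kg (adjusted p = 0.000293) and by 4.11 ± 0.50 at 2000 mg/kg (adjusted p = 1.41e-08, and 3.51 without the 2 outlying arrays). It stood above that at 3 h by 1.63 at 1500 mg/kg (adjusted p = 0.0207) and 2.60 at 2000 mg/kg (adjusted p = 8.25e-05). For Abcc2 the response at 24 h stood above that at 6 h by 0.65 ± 0.19 at 1500 mg/kg (adjusted p = 0.0163) and 0.93 ± 0.19 at 2000 mg/kg (adjusted p = 0.000231).

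None of these 3 calls at 1500 mg/kg held among rats free of the shared blank probes. There the Abcb1a response at 24 h stood above that at 6 h by 1.66 (adjusted p = 0.258) and above that at 3 h by 1.54 (adjusted p = 0.256), and for Abcc2 the 24 h less 6 h value was 0.45 (adjusted p = 0.34). The outlying Abcb1a array of rat 5889 was kept in this fit, so it enters the shared spread of Abcb1a and the 4.27 given below. The 24 h less 3 h call of Abcb1a was also lost with rat RNA in Cy5 alone (2.10, adjusted p = 0.0758) and in Cy3 alone (1.15, adjusted p = 0.249). Each of these fits kept 1 of the 2 outlying arrays, 9.22 in Cy5 and -5.17 in Cy3. At 2000 mg/kg the 24 h less 6 h values were 4.27 for Abcb1a (adjusted p = 0.000237) and 1.24 for Abcc2 (adjusted p = 0.000383) in rats free of the blank probes, against 4.05 (adjusted p = 7.55e-05) and 0.51 (adjusted p = 0.412) in rats with them on both arrays.

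Of all gene rows, 9.51% at 1500 mg/kg and 13% at 2000 mg/kg passed for 24 h against 6 h, and 11.9% and 15.7% for 24 h against 3 h. Abcc3 passed in none of these tests, with 24 h minus 6 h differences of -0.24 (95% interval -0.76 to 0.29) and -0.37 (-0.90 to 0.15). From 3 to 6 h no pump passed, where 0.869% of gene rows at 1500 mg/kg and 3.46% at 2000 mg/kg did, and the Abcb1a change at 2000 mg/kg was -1.5 (adjusted p = 0.0792), or -1.06 without the 2 outlying arrays (adjusted p = 0.0319).

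**Figure D3:**
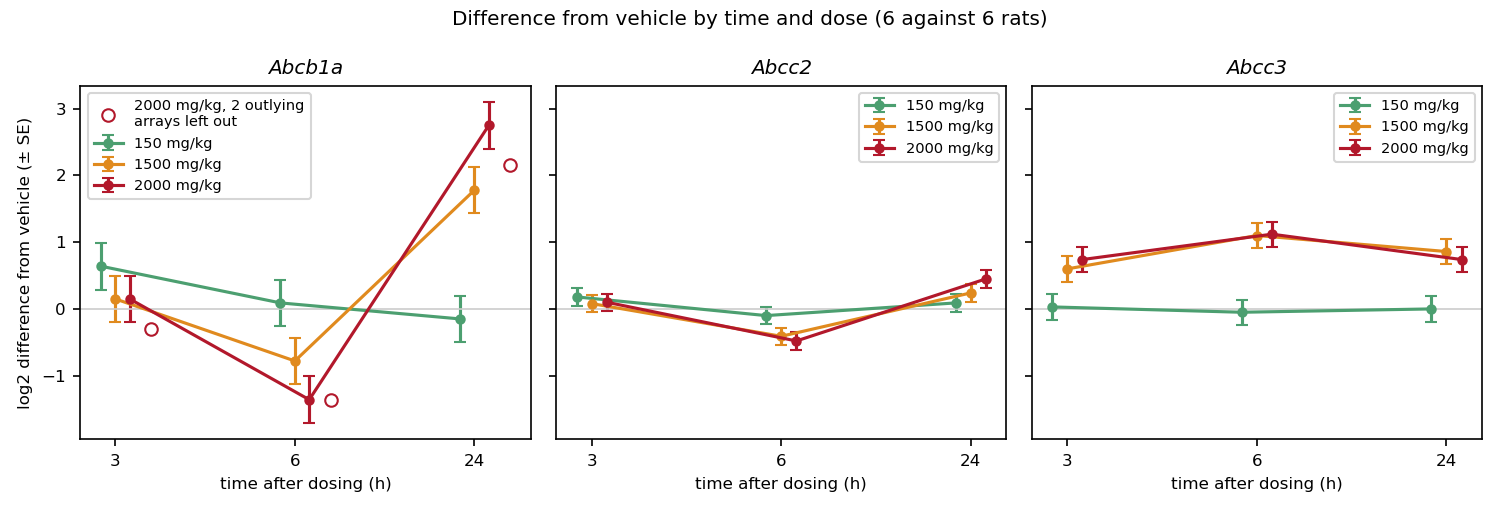
Log2 difference from vehicle (vertical axis, ± SE, 6 against 6 rats) of the 3 pumps at 3, 6 and 24 h (horizontal axis, evenly spaced) for 150, 1500 and 2000 mg/kg. Abcc3 is above 0 at all times at the high doses, Abcb1a and Abcc2 go below 0 at 6 h and above it at 24 h, and open circles show Abcb1a at 2000 mg/kg without the 2 outlying arrays (2.15 at 24 h).

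Whether the pumps changed by unequal amounts in the same livers was tested on the difference between 2 genes within each rat, dosed against vehicle, with a two-sided exact permutation test of 6 against 6 rats. There were 27 such tests, p-values were adjusted over them, and the smallest p that 6 against 6 rats can give is 0.00216. Abcc3 changed more than Abcc2 at 3 h, by 0.52 at 1500 mg/kg and 0.64 at 2000 mg/kg (exact test, adjusted p = 0.00835 each). At 6 h the excess of Abcc3 over Abcc2 was 1.5 (adjusted p = 0.026) and 1.60 (adjusted p = 0.00835). At 24 h it was 0.62 (adjusted p = 0.0682) and 0.29 (adjusted p = 0.28).

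Abcc3 exceeded Abcb1a at 6 h by 1.88 (exact test, adjusted p = 0.0372) and 2.47 (adjusted p = 0.00835). The order turned at 24 h, when the Abcc3 change was below that of Abcb1a, with differences of -0.91 at 1500 mg/kg (adjusted p = 0.0351) and -2.01 at 2000 mg/kg (adjusted p = 0.00835, and -1.41 without the 2 outlying arrays). Abcc2 was also below Abcb1a at 24 h, by -1.54 and -2.30 (adjusted p = 0.00835 each), and above it at 6 h and 2000 mg/kg by 0.88 (adjusted p = 0.0146). At 3 h the difference between Abcc3 and Abcb1a was 0.45 and 0.60 (adjusted p = 0.43 and 0.327), but 0.89 and 1.04 without the 2 outlying arrays (adjusted p = 0.00649 each). No pair passed at 150 mg/kg. These tests were not repeated within rats with or without the shared blank probes, which at 3 h were unevenly spread over the doses.

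Among the 12 rats given 1500 or 2000 mg/kg and killed at 24 h, those with more Abcb1a tended to have more Abcc2. Spearman's rho was 0.846 (permutation test, adjusted p = 0.00594 over 6 relations) and Pearson's r was 0.503 (adjusted p = 0.214). Without the 2 rats farthest from the Abcb1a median r was 0.819, and with the outlying array of rat 5889 left out it was 0.843 over 12 rats (adjusted p = 0.00372). Within 1500 mg/kg r was 0.861 (exact permutation p = 0.0333), and within 2000 mg/kg it was 0.342 (exact permutation p = 0.51), or 0.812 without that array (exact permutation p = 0.05).

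At 1500 mg/kg both genes also parted by the shared blank probes. The 3 rats with them on both arrays had Abcb1a of 1.94 to 2.40 and Abcc2 of 0.33 to 0.87, and the 3 rats without them had 0.99 to 1.45 and -0.27 to 0.11. Over both high doses, r of Abcb1a with Abcc2 was 0.838 among the 6 rats with the blank probes (exact permutation p = 0.0389, adjusted p = 0.233 over 6 relations) and 0.624 among the 6 rats without them (adjusted p = 0.597), or 0.913 without the outlying array (exact permutation p = 0.0181, adjusted p = 0.108). Within neither kind of rat did the relation pass after adjustment.

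For Abcc3 neither relation passed across these rats. Its r was 0.420 with Abcb1a and 0.487 with Abcc2 (permutation test, adjusted p = 0.251 and 0.214), and its rho was 0.503 and 0.524 (adjusted p = 0.123 each). Within 2000 mg/kg r was 0.624 and 0.705 (exact permutation p = 0.171 and 0.142), and within 1500 mg/kg it was 0.519 and 0.421 (exact permutation p = 0.301 and 0.415). Whether these correlations differ from that of Abcb1a with Abcc2 was not tested. Nqo1, a reductase gene widely used as a readout of the oxidant sensor NRF2, had r of 0.632 with Abcc2, 0.172 with Abcb1a and 0.10 with Abcc3 (adjusted p = 0.167, 0.717 and 0.756). Without the outlying array the r of Nqo1 with Abcb1a was 0.667 (adjusted p = 0.0518).

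**Figure D4:**
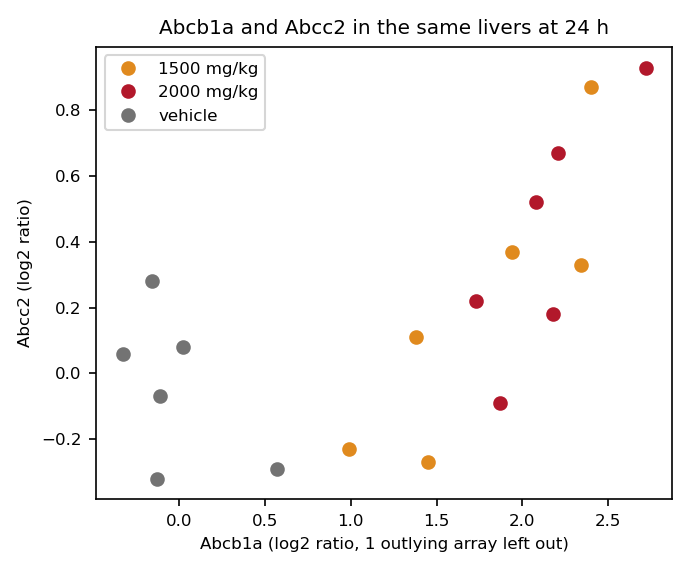
Abcc2 (vertical axis) against Abcb1a (horizontal axis), both as log2 ratios over the 24 h pool, in rats given 1500 or 2000 mg/kg or vehicle, with the outlying Abcb1a array of rat 5889 left out. Dosed rats with higher Abcb1a had higher Abcc2 (r = 0.843 over 12 rats), and all lay to the right of the vehicle rats.

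The other exporters of the hepatocyte membrane were read from lists chosen by function. Of all gene rows, 3.39% rose and 2.46% fell at 3 h and 1500 mg/kg, and 4.92% rose and 4.1% fell at 3 h and 2000 mg/kg. At 6 h 3.65% rose and 3.23% fell at 1500 mg/kg, and 5.31% rose and 5.84% fell at 2000 mg/kg. By 24 h these shares had reached 10.2% and 11.4% at 1500 mg/kg and 11.8% and 12.5% at 2000 mg/kg.

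Of 6 other canalicular transporters measured, none passed at 3 h, 1 fell at 6 h at each high dose, and 2 rose and 2 fell at 24 h at each. Abcg5 and Abcg8, the partner subunits of the sterol exporter, rose at 24 h, Abcg5 by 1.58 and 2.34 and Abcg8 by 0.58 and 0.64 at 1500 and 2000 mg/kg. Abcb11, the bile salt export pump, fell by 0.59 and 0.63, and Abcg2, the breast cancer resistance protein, fell by 0.59 and 0.66. The fall at 6 h was that of Atp8b1, by 0.30 and 0.40, a phospholipid flippase of the canalicular membrane and not an exporter. Slc47a1, a carrier of organic cations, gave no call at any time. The list medians at 24 h were 0.01 and -0.11, beside -0.01 and -0.015 over all gene rows.

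Of 6 other sinusoidal exporters, none passed at 3 or 6 h, and 1 rose and 1 fell at 24 h at each high dose. Abcc4, a pump for cyclic nucleotides and conjugates, rose by 0.87 and 1.57, and Abcc6, known for its part in pyrophosphate release, fell by 0.83 and 0.76 on the log2 scale. Abcc1, a close relative of Abcc3, gave no call at any time, and neither did Abcc5, Abca1 and Slc51a.

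Most carriers that bring bile salts and drugs into hepatocytes were lower at 24 h. Of 8 measured, 6 fell and none rose at 24 h at each high dose, with a median of -0.92 at both, against 1 fall at 6 h and 2000 mg/kg and none at 3 h. The bile salt carrier Slc10a1 changed by -1.06 and -1.17, and the organic anion carriers Slco1a4 and Slco1b2 by -1.44 and -1.63 and by -1.31 and -1.04. Of the 6 proteins that anchor canalicular pumps to the cytoskeleton, Rdx (radixin, which tethers MRP2) was the 1 that passed. It changed by -0.48 and -0.56 at 6 h, when Abcc2 fell, and by -0.42 at 24 h and 1500 mg/kg.

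**Figure D5:**
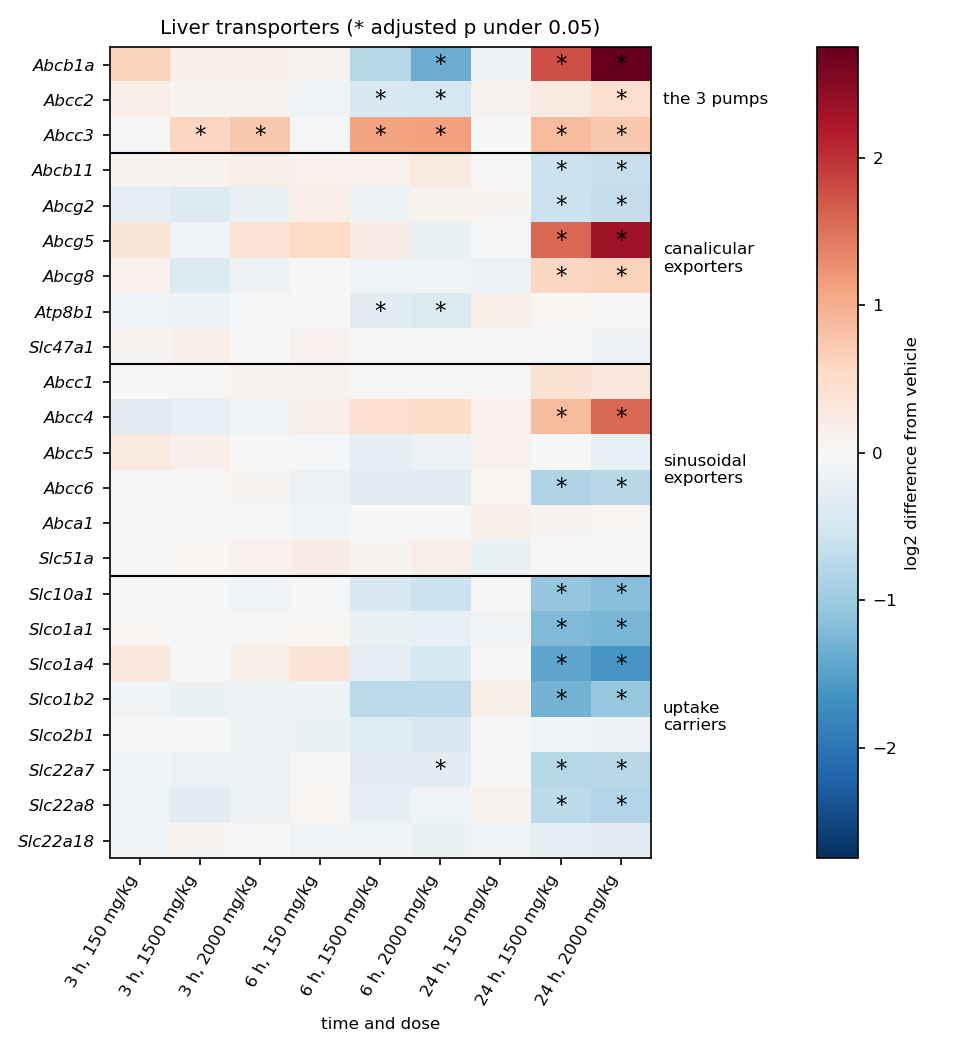
Log2 difference from vehicle (colour scale) of the 3 pumps and 20 other liver transporters in the 9 comparisons of time and dose (columns), with asterisks at an adjusted p under 0.05. Of 8 uptake carriers 6 carry an asterisk and are blue at 24 h at both high doses, while Abcb1a, Abcg5 and Abcc4 are red there and Abcc3 is red at every time at these doses.

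Genes that make acetaminophen conjugates or their precursors moved in both directions. Of 13 measured, 5 rose and 4 fell at 24 h and 1500 mg/kg, and 4 rose and 2 fell at 2000 mg/kg. The glutathione transferase genes Gsta3, Gstm1 and Gstp1 rose by 1.46, 1.02 and 1.46 at 1500 mg/kg and by 1.77, 1.19 and 1.80 at 2000 mg/kg. The sulfotransferase gene Sult1c3 changed by -1.71 and -2.05, and another, Sult1b1, rose at 6 h by 0.84 and 0.79 and gave no call at 24 h. The glucuronosyltransferase gene of the list gave no call at any time. Ugp2, which makes the precursor of UDP-glucuronic acid, was low at 6 h (-0.77 and -0.97) and high at 24 h (0.75 and 0.98). Abcb1a and Abcc2 had this order of signs too, though not with a call at each time and dose. How many gene rows share the order was not counted.

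Targets of NRF2, a transcription factor known to act on Abcc2 and Abcc3 in mice, rose mainly at 24 h. Of 19 measured, 15 rose at 1500 mg/kg and 19 at 2000 mg/kg, with medians of 1.13 and 1.52, and none fell. At 6 h and 2000 mg/kg 5 rose, among them Hmox1 (2.02) and Txnrd1 (0.97), while Osgin1, a growth inhibitor gene, fell at 3 h at both doses (-1.83 and -1.86) and rose at 6 h and 2000 mg/kg (1.35). No other target passed at 3 h. The mRNA of NRF2 itself, Nfe2l2, changed by -1.02 and -1.19 at 3 h and by -0.59 at 6 h and 2000 mg/kg.

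Of 18 regulators of the pumps measured, 2 rose and 3 fell at 3 h and 1500 mg/kg, and 1 rose and 4 fell at 2000 mg/kg. At 6 h 1 rose and 1 fell at 1500 mg/kg, and 1 rose and 3 fell at 2000 mg/kg. At 24 h 0 rose and 4 fell at 1500 mg/kg, and 2 rose and 3 fell at 2000 mg/kg. Nr0b2, the bile-acid-induced repressor SHP, rose at 3 h and 1500 mg/kg (1.44, adjusted p = 0.0405), fell at 6 h and 2000 mg/kg (-1.66, adjusted p = 0.00802) and fell at 24 h at both doses (-2.13 and -2.24). The bile acid receptor gene Nr1h4 changed by -0.67 at 3 h and 2000 mg/kg and by -0.54 at 24 h at each dose. Nr1i2, the drug sensor PXR, rose by 0.39 and 0.44 at 6 h and changed by -0.39 at 24 h and 1500 mg/kg. Rara, a retinoic acid receptor gene, changed by -0.54 and -0.79 at 3 h and by -0.70 and -0.65 at 24 h. Ppara, a fatty acid sensor, rose at 3 h by 0.81 and 0.60. Nfyb, a subunit of the CCAAT-binding factor NF-Y, changed by -0.46 and -0.37 at 3 h, by -0.55 and -0.48 at 6 h and by 0.39 at 24 h and 2000 mg/kg. Sp1, a GC box binding factor, rose by 0.64 at 24 h and 2000 mg/kg.

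Of 10 targets of PXR and its relative CAR, 2 rose at 3 h and 1 at 6 h at each high dose, and 1 rose and 1 fell at 24 h. Por, the electron donor of P450 enzymes, rose at every time, by 1.33 and 1.38 at 3 h, 1.16 and 1.34 at 6 h, and 0.75 and 1.05 at 24 h. Alas1, the first enzyme of heme synthesis, rose at 3 h (2.43 and 2.84), and Cyp3a2 changed by -2.28 and -2.76 at 24 h. Por, the only 1 of the 10 to rise at 6 h, shared with Abcc3 a call at all 3 times and both high doses. How many gene rows had calls in all of these comparisons was not counted.

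Markers of other liver cells also moved, and their part in the pump values was not tested. Of 7 endothelial markers, 3 fell at 1500 mg/kg and 4 at 2000 mg/kg at 24 h, and 1 rose at each of these doses at 3 and 6 h. At 24 h the mean of the 7 ran from -0.45 to 0.14 at 1500 mg/kg and from -0.47 to -0.08 at 2000 mg/kg, against -0.04 to 0.28 in vehicle rats. Of 7 macrophage and Kupffer markers, 3 fell at each dose at 24 h, with means from -0.42 to -0.01 and from -0.36 to -0.06, against -0.10 to 0.43 in vehicle rats.

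Some stellate markers fell at each time. Of 5, 2 fell at each high dose at 3 h, 1 at 1500 mg/kg and 3 at 2000 mg/kg at 6 h, when Abcb1a and Abcc2 fell, and 2 at each dose at 24 h. At 3 h the mean of the 5 ran from -0.26 to -0.06 at 1500 mg/kg and from -0.31 to -0.05 at 2000 mg/kg, against -0.04 to 0.12 in vehicle rats. At 6 h it ran from -0.47 to 0.02 and from -0.47 to -0.03, against -0.11 to 0.28 in vehicle rats. At 24 h it ran from -0.45 to -0.12 and from -0.52 to -0.13, against -0.03 to 0.11 in vehicle rats. The groups overlapped at 6 h and not at 3 or 24 h.

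Of 7 hepatocyte markers, none rose and 1 fell at each high dose at 24 h, with means from -0.19 to 0.37 at 1500 mg/kg and 0.08 to 0.31 at 2000 mg/kg, against -0.02 to 0.49 in vehicle rats. At 3 h 2 of them rose at each high dose, Tat and Ass1, named after their values were seen, and at 6 h and 2000 mg/kg 2 rose. The mean of the 7 at 3 h ran from 0.46 to 0.76 at 1500 mg/kg and from 0.52 to 0.72 at 2000 mg/kg, against -0.24 to 0.46 in vehicle rats. The median difference of the 7 from vehicle was 0.08 and 0.10 at these doses, and the highest was 1.85 and 1.94. The raised mean thus rested on few of the markers. Of 7 bile duct markers, 1 fell at 6 h at each high dose and 1 at 24 h and 1500 mg/kg. Of 4 neutrophil markers, 2 rose at 1500 mg/kg and 1 rose at 2000 mg/kg at 24 h. Of 6 lymphocyte markers, 2 and 1 fell at these doses at 24 h, and 1 fell at 6 h and 2000 mg/kg. A ratio to a pool holds no absolute level, so which markers are absent from these livers cannot be read.

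The genes most like each pump were found by Pearson's r over the 72 rats, among 9652 genes, as a description, since the rats share doses and times. The ratios of the 3 times are over different pools, whose differences enter this r. For Abcc3 they were Mt3 (0.938), Hp1bp3 (0.913), Phospho1 (0.890), Mt1 (0.873), R3hdm4 (0.867) and Gadd45b (0.867), and Alad (-0.878), Cdip1 (-0.876) and Emid1 (-0.874) were the most opposite. Mt1 and Mt3 encode metallothioneins, small metal-binding proteins. For Abcc2 the values were lower, with Casp12 (0.766), Ruvbl1 (0.756), Hdgf (0.743), Gatad2a (0.741), Lrrc59 (0.733) and Hspa5 (0.717), and Tmem141 (-0.802), B4galnt1 (-0.770) and Cyp4b1 (-0.734) most opposite. Hspa5 encodes the main chaperone of the endoplasmic reticulum. With each gene's vehicle mean of a time subtracted, which removes the pool, a setting added after the values were seen, 4 of the 6 most like genes were again among the 6 most like for each of the 3 pumps, and Mt3 still led for Abcc3 (0.937) and Casp12 for Abcc2 (0.789). Of the 3 most opposite genes, 1 was shared for Abcc3, 2 for Abcc2 and 3 for Abcb1a.

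For Abcb1a the most like were Akr1a1 (0.862), Tcp1 (0.859), Slc7a5 (0.850), Gstcd (0.840), Atic (0.839) and Def8 (0.837), and the most opposite Disp1 (-0.828), Cdo1 (-0.823) and Pfkfb1 (-0.818). The outlying arrays shaped this list. Without them it opened with Gclm (0.916), a subunit gene of the enzyme that starts glutathione synthesis, then Akr1a1 (0.910), Tcp1 (0.903), Aimp1 (0.893), Ubfd1 (0.888) and Slc17a3 (0.878). The most opposite were then Aspa (-0.864), Acat2 (-0.859) and Abcb11 (-0.854), the last of these the bile salt export pump of the same canalicular membrane.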

How the data were processed

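The values were log ratios of liver RNA over a time-matched vehicle pool, as deposited by the authors in the value table, taken as log10 and converted to log2 here. Per the labels, each rat was measured on 2 arrays with Cy3 and Cy5 exchanged. Normalization, log base and ratio direction were not given in the sources used here. Array medians lay between 0 and 0.000258, so the arrays had been centred.

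Ratios were turned to rat over pool, and averaged over each rat's 2 arrays. Of 22075 probes, 12750 carried 1 gene symbol, 5 several and 9320 none. Probes of a symbol were averaged, and rows needed values on 72 of 144 arrays, which left 18978 gene rows. Limma 3.58.1 (R 4.3.3) fitted 12 group means over 72 rats. Exact permutation tests and 100000 permutations for correlations used SciPy 1.17.1. The limma steps were tested on simulated data. The precision is limited by the number of arrays, 2 per rat and 6 rats per group.

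The members and all gene lists were chosen with earlier results of these data known. Named genes were the members and the 6 most like and 3 most opposite genes of each. Any exporter or regulator could be named, and from each other list the 4 with the smallest p in a contrast, among those that passed. Alternatives covered centring, dye orientation, exact zeros, probe averaging, incomplete rows, the samples and weights in the fit, the shared blank probes and each rat in turn. Gene positions (3 of 3 genes matched by gene ID) and promoter windows (2 of 3 matched by symbol) came from RefSeq (GRCr8).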

Additional observations from a re-analysis of the deposited data

Results flagged for a closer look

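In 36 groups of 6 rats (12 groups for each of 3 pumps), 3 held a rat whose gap to its nearest neighbour exceeded Dixon's 95% limit for 6 values, as a share of the group's range. Chance marks about 1 in 20 such groups. For Abcb1a, rat 5889 at 24 h and 2000 mg/kg was the highest at 5.65, with a gap of 7.14 between its 2 arrays, and vehicle rat 2698 at 3 h was the lowest at -2.51, with a gap of 5.31. For Abcc3, rat 8658 at 24 h and 150 mg/kg was the highest at 0.11, in a group that spanned only -0.12 to 0.11.

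The response differed between times by a test of the difference itself in 6 cases. For Abcb1a, the response at 24 h stood above that at 6 h by 2.56 and 4.11 at 1500 and 2000 mg/kg, and above that at 3 h by 1.63 and 2.60. For Abcc2, the response at 24 h stood above that at 6 h by 0.65 and 0.93. Their adjusted p-values, and the 3 calls at 1500 mg/kg that were lost among rats free of the shared blank probes, are given with the time course above.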

How the results depend on the processing

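No result changed its direction among those that passed the test. Centring the arrays, exact zeros as missing, 1 row per probe and complete rows alone could not move the pump values, since array medians were already within 0.000258 of 0, and the pump probes held no zero or blank and were 1 per gene. The other alternatives, save leaving out a rat, gave 576 values of pumps, pump differences and correlations. Of these, 530 kept their side of the threshold, 27 lost the call and 19 gained it. The 530 do not measure how many calls held. They include tests that had no call to lose, such as those of the lowest dose against vehicle. They also include values of Abcc2 and Abcc3 that leaving out the outlying Abcb1a arrays left unchanged. The causes of the changes below were not tested.

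Each single-dye fit kept 1 of the 2 outlying Abcb1a arrays, that of rat 5889 in Cy5 and that of rat 2698 in Cy3. With rat RNA in Cy5 alone, Abcb1a gave -1.26 at 6 h and 2000 mg/kg (adjusted p = 0.159) and 2.10 for the 1500 mg/kg response at 24 h less 3 h (0.0758). Abcc2 then gave -0.41 at 6 h and 1500 mg/kg (0.0657), and Abcc3 gave 0.61 at 3 h and 1500 mg/kg (0.0726). Of the pump differences, Abcc3 minus Abcb1a was 0.98 at 3 h (0.00731) and -0.85 at 24 h (0.0531), both at 1500 mg/kg, and Abcc2 minus Abcb1a was 0.74 at 6 h and 2000 mg/kg (0.109). With Cy3 alone, the 24 h less 3 h response of Abcb1a was 1.15 (0.249), Abcc2 at 6 h and 1500 mg/kg was -0.40 (0.0606), and the r of Abcb1a with Abcc2 was 0.877.

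With every array fitted singly, the dye as a term and rats as random blocks, Abcc2 passed at 24 h and 1500 mg/kg (0.24), for 6 h less 3 h at both doses (-0.48 and -0.58) and for 24 h less 3 h at 2000 mg/kg (0.35). With the compared groups alone, the Abcc2 calls at 6 h and 1500 mg/kg (-0.41), 24 h and 2000 mg/kg (0.45) and 24 h less 6 h at 1500 mg/kg (0.65) were lost, and 6 h less 3 h at 2000 mg/kg passed for Abcb1a (-1.5) and Abcc2 (-0.58). With quality weights per rat, Abcb1a at 6 h and 1500 mg/kg (-0.99) and its 6 h less 3 h response at 2000 mg/kg (-1.26) passed, as did Abcc2 at 24 h and 1500 mg/kg (0.37), its 6 h less 3 h response at 2000 mg/kg (-0.56) and the 24 h less 6 h response of Abcc3 at 2000 mg/kg (-0.68). Abcc2 at 24 h and 2000 mg/kg was then 0.29 (0.0696). With the blank-probe arrays as a covariate, Abcc2 at 6 h and 1500 mg/kg was -0.35 (0.0769).

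Among rats free of the shared blank probes, fewer rats entered the fit, which kept the outlying Abcb1a array of rat 5889, and these calls were lost. For Abcb1a they were 6 h at 2000 mg/kg (-1.17), 24 h at 1500 mg/kg (1.19), and the 1500 mg/kg responses at 24 h less 6 h (1.66) and less 3 h (1.54). For Abcc2 they were 6 h at 1500 mg/kg (-0.43) and 24 h less 6 h at 1500 mg/kg (0.45), while 24 h less 3 h at 2000 mg/kg (0.62) passed. For Abcc3 they were 3 h (0.60 and 0.76) and 24 h (0.63 and 0.66). Among rats with the blank probes on both arrays, lost calls were Abcc2 at 6 h (-0.34), at 24 h (0.17) and 24 h less 6 h (0.51), and Abcc3 at 24 h (0.83), all at 2000 mg/kg. Without the 2 outlying arrays, Abcb1a passed at 6 h and 1500 mg/kg (-0.78) and for 6 h less 3 h at 2000 mg/kg (-1.06), Abcc3 minus Abcb1a passed at 3 h (0.89 and 1.04), and r reached 0.843.

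Leaving out each rat in turn gave 0.51 to 0.66 for Abcc3 at 3 h and 1500 mg/kg, -1.05 to -0.60 for Abcb1a at 6 h and 1500 mg/kg, and -1.66 to -1.12 for its 6 h less 3 h response at 2000 mg/kg. For Abcc2 it gave -0.50 to -0.35 at 6 h and 1500 mg/kg, 0.34 to 0.55 at 24 h and 2000 mg/kg, 0.51 to 0.74 for 24 h less 6 h at 1500 mg/kg and -0.66 to -0.52 for 6 h less 3 h at 2000 mg/kg. No paired analysis was possible because no rat number occurs in more than 1 group. Over all gene rows, quality weights called 3094 rows at 6 h and 1500 mg/kg against 1305 and 4260 at 2000 mg/kg against 2116, the random blocks called 2262 at 6 h and 1500 mg/kg, Cy5 alone 686 against 1110 at 3 h and 1500 mg/kg, and Cy3 alone 1113 against 1713 at 3 h and 2000 mg/kg. Rats free of the blank probes called 475 and 871 rows at 3 h, 299 and 501 at 6 h and 595 and 2773 at 24 h, and rats with them 1137 at 6 h and 2360 at 24 h, both at 2000 mg/kg. Of the list counts, NRF2 targets that rose at 6 h ranged from 2 to 5 of 19 at 2000 mg/kg under a single dye and reached 8 at 1500 mg/kg with quality weights.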

Other observations

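Abcc3 in vehicle rats did not centre on the pools made from vehicle rats. Its log2 ratio averaged -0.17 ± 0.09 at 3 h, -0.36 ± 0.12 at 6 h and -0.05 ± 0.10 at 24 h (SD, n = 6 each), and no vehicle rat at 3 or 6 h reached the level of its pool. Abcc2 averaged -0.08, 0.03 and -0.04 in the same rats. Abcb1a averaged -0.59 ± 0.98, 0.25 ± 0.24 and -0.02 ± 0.31 (SD), and -0.15 ± 0.29 at 3 h without the outlying arrays. The share of gene rows with all vehicle rats of a time below their pool was not counted.

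Rat 7334, given 1500 mg/kg and killed at 6 h, read 0.80 for Abcb1a, 0.09 for Abcc2 and -0.30 for Abcc3, each on the vehicle side of the other 5 rats of its group. At 24 h, rat 9540 at 2000 mg/kg had the lowest Abcc2 (-0.09) and the lowest Abcc3 (0.25) of its group, and rat 8089 had the highest of both (0.93 and 1.45).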
